A study of Sus scrofa with 10 samples.

Results

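The genes described are the cytosolic ribosomal protein genes of the pig, measured by RNA sequencing in morulae. Members were the rows of the gene table whose deposited name is that of an RPL or RPS gene with its number, RPLP with a digit, or RPSA, and the rule used no measured value. It found 51 members among 24358 listed genes, each name on a single row. Of these, 45 were core members, 22 of the large and 23 of the small subunit, and 6 carried paralog names (RPL3L, RPL7L1, RPL10L, RPL26L1, RPL36AL and RPS27L). The table's description named a ribosomal protein for all 51. The members are not the whole ribosome: 28 further rows with counts are known as ribosomal protein genes only through reference gene tables, and they are described apart.

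Matured pig oocytes had received either an siRNA against DDB1 (DDB1_KD) or a non-specific siRNA (NC), had been activated parthenogenetically, and had been grown to the morula stage, with 5 libraries in each group. All 10 libraries thus come from embryos without a paternal genome, and no uninjected or fertilised embryos are among the groups. Breed, embryos per sample and the siRNA sequences are not given in the labels, and nothing there says whether the libraries of a group come from separate injections or cultures, so the p-values measure the spread between these libraries, which may be technical. DDB1 is the adaptor that links substrate receptors to CUL4 ubiquitin ligases, and the comparison asks which transcripts differ when its message is depleted.

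Ribosomal proteins bind ribosomal RNA in the nucleolus and cytoplasm, and a ribosome takes a single copy of nearly every one of them, so their messages are usually made in step. Most of these messages begin with a 5' terminal oligopyrimidine (TOP) tract, through which mTOR and the RNA-binding protein LARP1 control their translation and stability. Early embryos live on maternal ribosomes and messages until the embryonic genome is switched on. Surplus ribosomal proteins are degraded, and free RPL5 and RPL11, bound to the 5S ribosomal RNA, can inhibit the ubiquitin ligase MDM2.

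The libraries held 32466912 to 50911295 estimated counts. DDB1 stood at 0.920 to 1.55 FPKM (fragments per kilobase of gene, scaled to library size) in the DDB1_KD libraries and at 2.53 to 4.44 FPKM in the NC libraries, and the groups did not overlap. Markers of the morula were present as a set: 9 of the 10 listed genes were in the table and all 9 passed the filter on low values, with a summed level of 261 to 317 FPKM in DDB1_KD and 227 to 289 FPKM in NC. The levels were uneven. DPPA2 was the highest, with means of 146 (DDB1_KD) and 103 FPKM (NC), while SOX2 had means of 1.20 and 0.871 FPKM. In their lowest library NANOG stood at 0.354 FPKM, and TDGF1 and GATA3 at 0.0001 FPKM, the value listed for a count of 0. Markers of cumulus or granulosa cells summed to at most 1.22 FPKM in any library, with FSHR and AMH at 0 throughout, fibroblast markers to at most 3.57 FPKM and blood cell markers to at most 11.5 FPKM.

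Transcripts of the 51 members made up between 6.54% and 10.0% of all counts in a morula library. The share was 9.19%, 6.54%, 7.53%, 8.96% and 7.65% in DDB1_KD replicates 1 to 5, and 10.0%, 8.79%, 8.85%, 7.53% and 8.84% in NC replicates 1 to 5. The groups overlapped: DDB1_KD replicate 1 lay above 4 of the 5 NC libraries, NC replicate 4 lay among the lower DDB1_KD libraries, and the lowest value of all was that of DDB1_KD replicate 2. The mean share was 7.98% ± 1.10 for DDB1_KD and 8.81% ± 0.890 for NC (SD, n = 5 each). The difference of -0.837 percentage points was smaller than the SD of either group, and no p-value was computed for this sum over the members. It was -0.478 points without DDB1_KD replicate 2 and -0.527 points without NC replicate 1. With the counts taken as independent reads, the widest 95% interval (Wilson) of a library's share spanned 0.0199 points. The deposited counts may be estimates from coverage, so the counting error could differ from this. In RNA from whole embryos, fewer cells of a type and less of these messages per cell cannot be told apart.

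Other parts of the libraries moved beside the share. Genes of the mitochondrial chromosome took 12.2%, 16.8%, 16.4%, 12.2% and 24.4% of the counts in DDB1_KD replicates 1 to 5 and 8.58%, 13.1%, 11.7%, 18.4% and 14.1% in NC replicates 1 to 5. The library with the lowest mitochondrial share, NC replicate 1, had the highest ribosomal protein share. It also had the highest share, 11.0%, when mitochondrial counts were left out. With mitochondrial counts left out, the ribosomal protein share was 9.53% ± 1.09 for DDB1_KD and 10.1% ± 0.630 for NC (SD, n = 5 each), a difference of -0.594 points. DDB1_KD replicate 5, which held the most mitochondrial counts, had a share of 7.65% on all counts and 10.1% on the others, and was the third lowest of its group on both. Messages of 13 maternal genes, such as the zona pellucida genes, had a mean log2 CPM (counts scaled to library size) of 1.63, 4.91, 4.79, 3.17 and 4.76 in DDB1_KD and of 3.03, 3.49, 4.28, 2.62 and 2.31 in NC. The part of the mitochondrial and maternal messages in the ribosomal protein share was not tested.

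**Figure D1:**
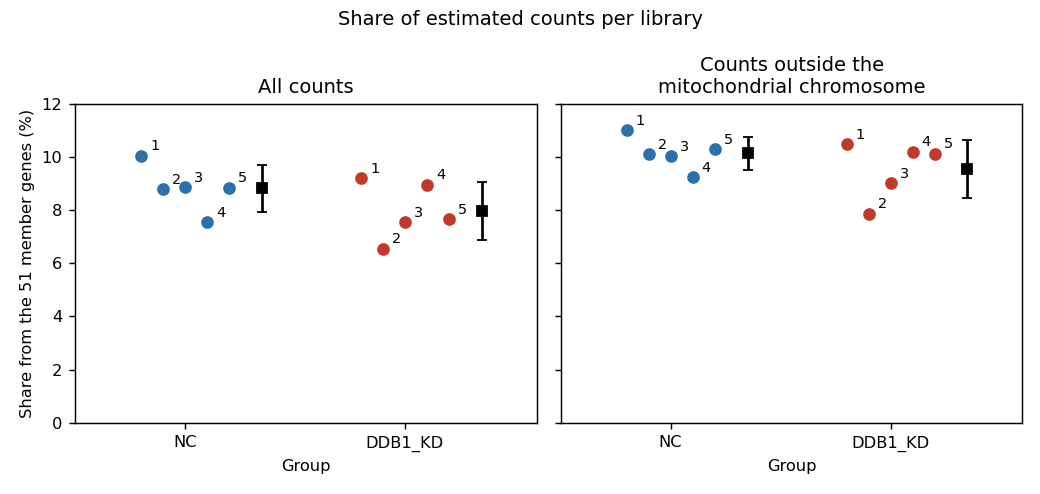
Share of estimated counts from the 51 member genes (%), over all counts on the left and over counts outside the mitochondrial chromosome on the right. Each numbered point is a library, squares are group means and bars are SD (n = 5). On all counts NC ran from 7.53% to 10.0% and DDB1_KD from 6.54% to 9.19%, so the groups overlap in both panels.

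The means were lower in DDB1_KD for both subunits, by less than the SD of either group. Genes of the large subunit held 3.81% ± 0.436 of all counts in DDB1_KD and 4.17% ± 0.415 in NC, and genes of the small subunit 4.16% ± 0.694 and 4.64% ± 0.492 (SD, n = 5 each). The ratio of large to small subunit counts was 0.923 ± 0.0787 in DDB1_KD and 0.900 ± 0.0356 in NC. DDB1_KD replicate 5, at 1.04, was the library in which large subunit counts exceeded those of the small subunit, and the other 9 libraries lay between 0.842 and 0.939.

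The members were among the most abundant messages of the morula: 28 of them stood among the 100 nuclear genes of highest FPKM. The core median of a library averaged 932 ± 146 FPKM over the DDB1_KD libraries and 1032 ± 118 FPKM over the NC libraries (SD, n = 5 each). By mean FPKM over the 10 libraries the order was led by RPS21 at 3799, RPS28 at 2852, RPL11 at 2840, RPS23 at 2829, RPS15 at 2823 and RPS16 at 2787. RPS28 and RPS23 sit at the mRNA exit and the decoding centre of the small subunit, and RPL11 belongs to the 5S particle of the large subunit. RPS28 to RPS16 are neighbours that differ by far less than their spread over libraries. The low end was formed by RPL21 at 427 FPKM, RPSA at 360, RPS2 at 343, RPS7 at 312, RPL35 at 251 and RPL3 at 130. RPSA is needed for maturation of the small subunit, RPS2 lies at its mRNA entry, RPL35 lies by the peptide exit tunnel, and RPL3 reaches towards the peptidyl transferase centre.

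RPS21 (ENSSSCG00000021825, chromosome 17, 61763564 to 61764815, plus strand, build susScr11), at the top of the order, measured 4156, 2492, 3500, 4117 and 3446 FPKM in DDB1_KD and 4671, 3991, 4181, 3659 and 3778 FPKM in NC. DDB1_KD replicate 2 was the lowest library, and the others of that group lay within or just under the NC range. RPL3 (ENSSSCG00000040494, chromosome 5, 8922653 to 8934282, plus strand), at the bottom, measured 136, 58.8, 63.0, 238 and 77.2 FPKM in DDB1_KD and 165, 119, 120, 133 and 190 FPKM in NC. DDB1_KD replicates 2, 3 and 5 lay below every NC library and replicate 4 above every one.

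The level order largely followed the length of the gene models. FPKM divides by length, and the length that links a member's counts to its FPKM ran from 325 bases for RPS28 to 5880 bases for RPL3, with a median of 1775 bases. The 10 core members over 3000 bases had mean levels of at most 1080 FPKM, and the 10 under 1000 bases had at least 1692 FPKM. Across the 45 core members, Spearman's rho with this length was -0.88 for mean FPKM and 0.11 for mean count. These are descriptions across genes of the same libraries, which are not independent replicates. The highest and the lowest core member were 29.2-fold apart in FPKM and 4.78-fold apart in mean count, from 32737 for RPL3 to 156628 for RPS20. RPL3 was the lowest on both scales. The single isoform listed for RPL3 has 5881 bases and the leading isoform of RPS2 has 5720, while RPS21 is listed with 382. Whether reads cover these long models along their whole length was not analysed here.

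**Figure D2:**
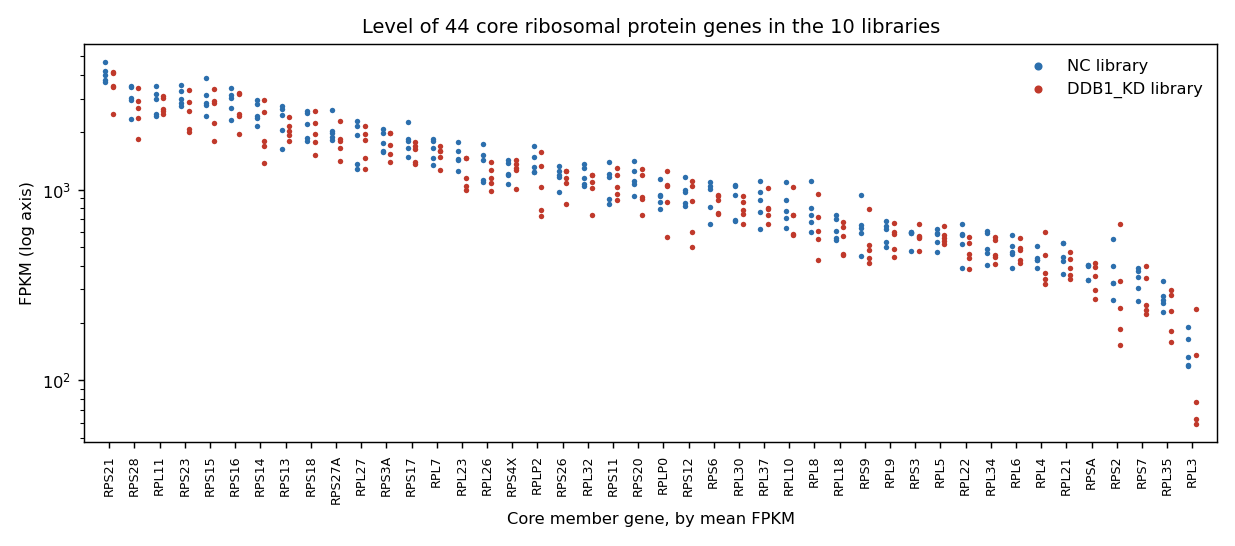
FPKM of 44 core members in each of the 10 libraries (log axis), ordered by mean FPKM, with NC in blue and DDB1_KD in red. Levels fall from a mean of 3799 FPKM for RPS21 to 130 FPKM for RPL3, and the points of both groups overlap for every gene drawn.

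**Figure D3:**
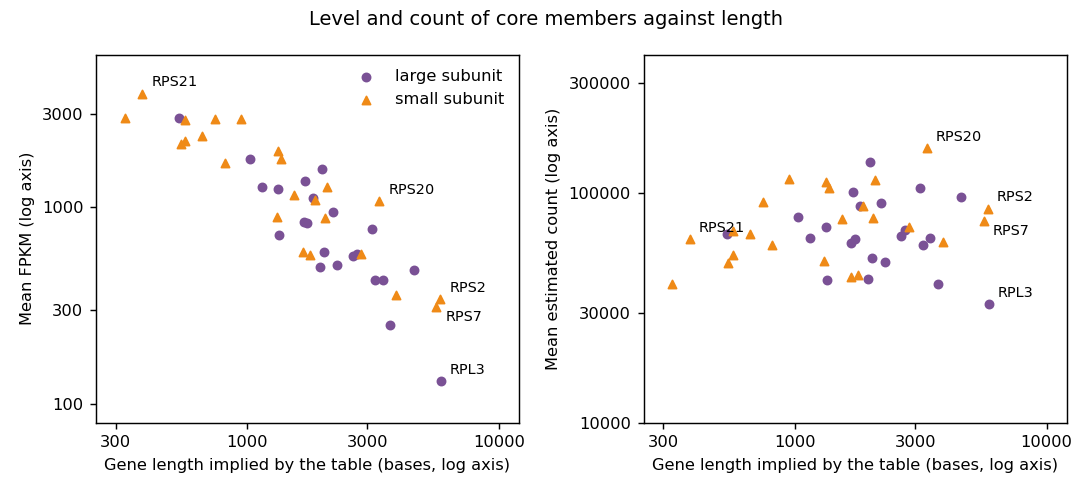
Mean FPKM (left) and mean estimated count (right) of the 45 core members against the gene length implied by the table, in bases, all axes logarithmic, with circles for the large and triangles for the small subunit. FPKM falls with length (rho -0.88), while the count does not (rho 0.11).

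Relative to the core median, 37 of the 45 core members had a smaller spread over the libraries than in FPKM alone, and 8, among them RPL5, RPL11, RPS6 and RPL27, had a larger one. Stoichiometry is given as log2 FPKM of a member minus the median of the core members in the same library. This median comes from the same genes, which by itself can narrow their spread, and no other gene set was centred alike. Its SD over the 10 libraries had a median of 0.21 over the core members, where the SD of log2 FPKM itself had a median of 0.26. The same SD of log2 FPKM was 0.51 at the median of the 8217 tested genes with counts in every library, most of which have fewer counts than the members. For 41 of the 45 core members the SD of stoichiometry was under 0.3. RPSA was the steadiest at 0.071, followed by RPS16 at 0.093, RPS20 at 0.10 and RPL23 at 0.10. RPSA measured 394, 268, 298, 413 and 351 FPKM in DDB1_KD and 396, 405, 335, 337 and 401 FPKM in NC. It thus moved with the core median from library to library.

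Among the 49 members with counts in every library, the 5 with the widest SD were RPL3 at 0.51, RPS2 at 0.50, RPL7L1 at 0.45, RPL26L1 at 0.44 and RPL27 at 0.33. RPS2 (ENSSSCG00000033697, chromosome 3, 39996140 to 40003110, plus strand) measured 332, 153, 238, 657 and 186 FPKM in DDB1_KD and 397, 264, 326, 324 and 550 FPKM in NC. It was high in DDB1_KD replicate 4 and NC replicate 5 and low in DDB1_KD replicates 2, 3 and 5, as was RPL3. RPL26L1, a paralog of RPL26, ran the other way with 877, 951, 823, 497 and 752 FPKM in DDB1_KD and 812, 761, 859, 848 and 584 FPKM in NC. RPL27, a large subunit protein, measured 2166, 1459, 1816, 1291 and 1955 FPKM in DDB1_KD and 2287, 2163, 1933, 1285 and 1357 FPKM in NC. RPL26L1 was lowest in DDB1_KD replicate 4 and NC replicate 5, and RPL27 in NC replicate 4, DDB1_KD replicate 4 and NC replicate 5.

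These members vary along a common axis that cuts across the groups. In a principal component description of the stoichiometry of the 49 members with counts in every library, made after the values were seen, the first component held 60.1% of the variance and the second 15.1%. RPS2, RPL3, RPL8 and RPS9 weighed most on its positive side, and RPL26L1, RPL7L1, RPL27 and RPL6 on its negative side. The scores were -0.17, -1.63, -1.10, 2.34 and -1.02 in DDB1_KD replicates 1 to 5 and 0.19, -0.74, -0.43, 0.47 and 2.08 in NC replicates 1 to 5. DDB1_KD replicate 4 and NC replicate 5, from different groups, stood apart at the positive end. DDB1_KD replicates 2, 3 and 5 formed the negative end, and they were also the libraries with the highest mean log2 CPM of the maternal genes, 4.76 to 4.91. The order did not match at the other end: DDB1_KD replicate 1, with the lowest maternal value of 1.63, scored -0.17, and DDB1_KD replicate 4, with the highest score, had a maternal value of 3.17. The part of the maternal messages in this order was not tested.

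**Figure D4:**
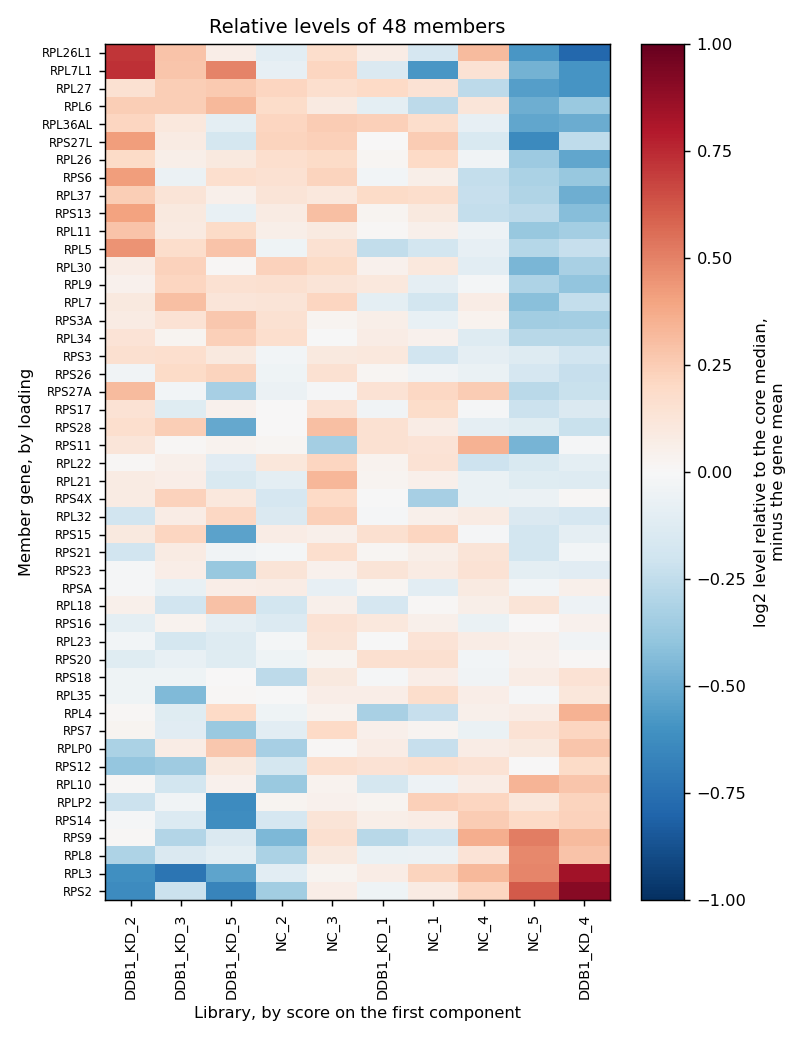
Stoichiometry of 48 members in 10 libraries, as log2 level relative to the core median of the library minus the gene's mean, with libraries ordered by their score on the first component and genes by their weight on it. RPS2 and RPL3 go from low in DDB1_KD replicate 2 (score -1.63) to high in DDB1_KD replicate 4 (score 2.34), opposite to RPL26L1 and RPL7L1, and both groups are spread along the order.

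No ribosomal protein gene was called by the test, while most fitted values were slightly lower in DDB1_KD. In edgeR's quasi-likelihood test over 8476 genes with a mean FPKM of at least 1, 50 members were tested and none passed a Benjamini-Hochberg adjusted p of 0.05, and 0.0% of all tested genes did. The smallest adjusted p of any tested gene was 0.977 (edgeR). DDB1 itself, whose FPKM did not overlap between the groups, was thus not called either. The absence of calls therefore does not show that the members' levels were equal. At an unadjusted p under 0.05 there were 0 members and 2.89% of all genes (245). DESeq2 called 2 genes, 0.0236% of the 8458 with an adjusted p, and 0 members. Its unadjusted p was under 0.05 for 0 members and 353 genes (4.16%). No member had groups without overlap in FPKM, where 0.413% of the tested genes had. The smallest p of a member was 0.107, for RPL23, and the adjusted p of members ranged from 0.977 to 0.999.

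The fitted log2 fold change of DDB1_KD against NC was below 0 for 43 of the 50 tested members (86.0%), where 50.0% of all tested genes were below 0. It was below by 0.1 or more for 31 members, where 37.8% of all genes were, and above by 0.1 or more for 2, a share not counted over all genes. The median was -0.15 over the members, 90.3% of the NC level, and 0.00 over all tested genes. Members share libraries and move together, so these are counts and not independent trials. The median was -0.063 without DDB1_KD replicate 2, with 34 members below 0, and -0.071 without NC replicate 1, with 38 below 0. The SE of a member's log2 fold change ran from 0.15 to 0.33 with a median of 0.19, leaving aside RPL10L, against a median of 0.32 over all genes.

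Of the core members of the large subunit 20 of 22 had lower fitted values, with a median log2 fold change of -0.14. Of those of the small subunit 21 of 23 did, with a median of -0.18. The 4 core members with fitted values above 0 were RPLP0, RPL5, RPS4X and RPS3, at log2 fold changes of 0.05, 0.03, 0.03 and 0.00.

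**Figure D5:**
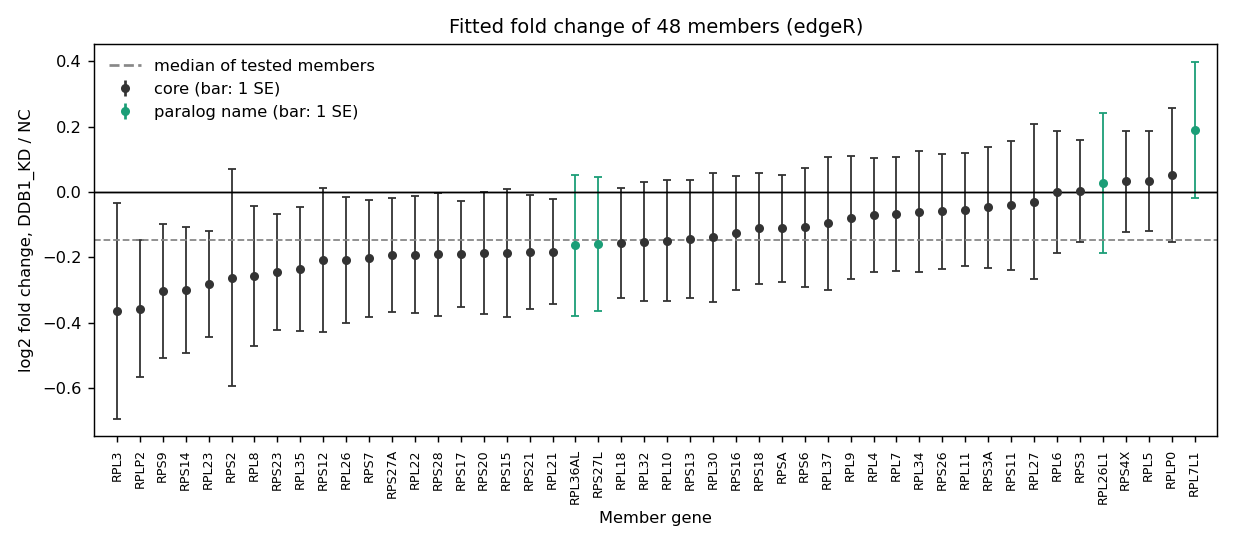
Fitted log2 fold change of DDB1_KD against NC for 48 tested members (RPL10L, SE 1.80, is not among them), ordered by value, with bars of 1 SE from edgeR; core members in black, paralog names in green. Most lie below 0 around the median of -0.15 (dashed), and the bars are of the size of the values.

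Among the large subunit genes, RPL23 had the smallest p. RPL23 (ENSSSCG00000038880, chromosome 12, 23279965 to 23290204, plus strand), which can also bind MDM2, measured 1462, 1001, 1051, 1466 and 1153 FPKM in DDB1_KD and 1770, 1427, 1457, 1260 and 1595 FPKM in NC. DDB1_KD replicates 2, 3 and 5 lay below the NC range and replicates 1 and 4 within it. The group means were 1227 ± 224 and 1502 ± 191 FPKM (SD, n = 5 each), with a log2 fold change of -0.28 (SE 0.16, edgeR adjusted p = 0.977). RPL35 had means of 230.0 ± 60.3 and 272 ± 38.2 FPKM, a log2 fold change of -0.24 (SE 0.19). RPL3 had means of 114.5 ± 75.5 and 145 ± 31.3 FPKM, a log2 fold change of -0.36 (SE 0.33) that was -0.73 without DDB1_KD replicate 4 and -0.19 without DDB1_KD replicate 2.

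Among the members, the stalk proteins RPLP2 and RPLP0, which recruit the elongation factors, did not have fitted values of the same sign. RPLP2 measured 1335, 784, 1039, 1573 and 732 FPKM in DDB1_KD and 1698, 1323, 1235, 1244 and 1490 FPKM in NC, with a log2 fold change of -0.36 (SE 0.21, edgeR adjusted p = 0.977). RPLP0, its anchor on the ribosome, measured 1061, 561, 858, 1258 and 1046 FPKM in DDB1_KD and 942, 790.0, 929, 867 and 1137 FPKM in NC, with a log2 fold change of 0.05 (SE 0.21). For both genes the groups overlapped, and the difference between their fold changes was not tested. The sign of RPLP0 was not stable, with -0.013 to 0.20 when a library was left out. RPLP1, a stalk protein among the rows described apart, had -0.26 (SE 0.22).

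The genes of both 5S particle proteins differed between the groups by less than their SE. RPL5 had means of 568 ± 49.2 FPKM (DDB1_KD) and 560.5 ± 58.8 FPKM (NC), a log2 fold change of 0.03 (SE 0.15). RPL11 had means of 2771 ± 268 and 2909 ± 450 FPKM, a log2 fold change of -0.05 (SE 0.17). RPL26, a protein near the peptide exit tunnel, stood at 1176 ± 158 and 1377 ± 271 FPKM, with -0.21 (SE 0.19). RPL10, which joins the large subunit late in its maturation, stood at 734 ± 184 and 819 ± 182 FPKM, with -0.15 (SE 0.19).

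In the small subunit the smallest p-values were those of RPS14, RPS9 and RPS23. RPS14, whose loss of a copy underlies the anaemia of the human 5q- syndrome, measured 2549, 1692, 1808, 2950 and 1374 FPKM in DDB1_KD and 2829, 2156, 2440, 2385 and 2958 FPKM in NC. DDB1_KD replicates 2, 3 and 5 were below the NC range and replicate 4 near its top. The log2 fold change of RPS14 was -0.30 (SE 0.19, edgeR adjusted p = 0.977). RPS9, a neighbour of RPS2 and RPS3 at the mRNA entry, had means of 528 ± 155 and 653 ± 175 FPKM, with -0.30 (SE 0.20), which was -0.17 without NC replicate 5. RPS23 had means of 2582 ± 550.5 and 3076 ± 325 FPKM, with -0.25 (SE 0.18). RPS2 had means of 313 ± 204 and 372 ± 110 FPKM and a log2 fold change of -0.26 (SE 0.33), which was -0.64 without DDB1_KD replicate 4 and -0.085 without DDB1_KD replicate 2.

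Without DDB1_KD replicate 4, RPLP2, RPS9, RPS2 and RPL3 (4 of 50 tested members) had an unadjusted p under 0.05 (edgeR). In that fit 10.5% of all genes (888) did, and again no gene passed the adjusted threshold of 0.05. No member had an unadjusted p under 0.05 when any other single library was left out.

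The other small subunit genes followed for their roles differed between the groups by about their SE or less. RPS6, the substrate of the S6 kinases, measured 938, 886, 744, 753 and 923 FPKM in DDB1_KD and 1092, 1046, 1013, 662 and 808 FPKM in NC, with a log2 fold change of -0.11 (SE 0.18). RPS27A, made as a fusion with ubiquitin, had means of 1800.0 ± 320.4 and 2064 ± 324 FPKM, with -0.19 (SE 0.17). RPS3, at the mRNA entry, had 566 ± 66.3 and 572 ± 54.4 FPKM, with 0.00 (SE 0.16). RPS4X, on chromosome X, had 1273 ± 160.4 and 1259 ± 152 FPKM, with 0.03 (SE 0.15). RPSA had 345 ± 61.5 and 375 ± 35.5 FPKM, with -0.11 (SE 0.16).

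The same fit, scaled so that the summed counts of the members were equal in all libraries, asks whether single members changed against the members' total. That total includes the gene tested and leaves out the ribosomal protein rows described apart. By construction it moved the median log2 fold change of all genes to 0.15 and left 25 members below and 25 above 0, where 33.7% of all genes were below 0. No gene passed the adjusted threshold (0.0%), and 0 members had an unadjusted p under 0.05, where 3.95% of all genes (335) had. Without DDB1_KD replicate 4, RPL7L1, RPS2 and RPL3 had an unadjusted p under 0.05 in this fit (edgeR), where 11.3% of all genes (960) had. No member had when any other single library was left out. Again no gene passed the adjusted threshold. Leaving aside RPL10L, the relative log2 fold changes ran from -0.26 for RPL3 (SE 0.30) to 0.34 for RPL7L1 (SE 0.24), which had the smallest p at 0.177 (edgeR). No member had groups without overlap in stoichiometry, which was not computed for other genes. In FPKM, groups without overlap were found for 0.413% of the tested genes, so finding none among the members is near that share.

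The paralog names fell into expressed and nearly silent genes. RPL7L1, related to a yeast factor of large subunit assembly, measured 192, 244, 207, 145 and 258 FPKM in DDB1_KD and 155, 197, 224, 191 and 161 FPKM in NC. Its means were 209 ± 44.7 and 186 ± 28.5 FPKM, and its log2 fold change of 0.19 (SE 0.21) was the highest of the members with counts in every library. It was 0.081 without DDB1_KD replicate 5 and 0.32 without DDB1_KD replicate 4. RPL26L1 stood at 780 ± 174 and 773 ± 112 FPKM, with 0.03 (SE 0.22), RPL36AL at 697 ± 139 and 789 ± 181 FPKM, with -0.16 (SE 0.22), and RPS27L, a paralog of RPS27, at 268 ± 27.3 and 300.4 ± 82.8 FPKM, with -0.16 (SE 0.21). RPL10L, a copy of RPL10 that the mouse testis uses, had counts in 4 libraries: 138 in DDB1_KD replicate 1, 32 in DDB1_KD replicate 4, 10 in NC replicate 2 and 103 in NC replicate 3. In the other 6 libraries it had 0 counts, which allows up to 3 counts per library. RPL10 itself averaged 105358 counts. RPL3L, the heart and muscle form of RPL3, had 0 to 23 counts per library and a mean of 0.105 FPKM, and it was the member that did not pass the filter on low values.

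At the level of isoforms, 28 members had more than 1 listed isoform, and in 20 of these a single isoform held over 90% of the counts. Over all 51 members 89 isoforms were listed and 77 were tested. None passed the adjusted threshold, where 0.00889% of 11250 isoforms did (1), and 1 had an unadjusted p under 0.05, where 3.36% of all isoforms (378) had.

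Some isoform shares stood apart in a few libraries. They rest on isoform counts that may be estimates from coverage, and their cause was not tested. The isoform of RPS3 with 7 exons held 95.3% of the gene's counts in DDB1_KD replicate 2 and 96.1% in NC replicate 1, but 31.6% to 50.3% in the other 8 libraries. The 6-exon isoform of RPS6 held 1.73% in DDB1_KD replicate 4 and 17.4% in DDB1_KD replicate 1, and 34.2% to 46.0% in the other 8. The 1181-base isoform of RPL21 held 78.5% in NC replicate 5 and 45.6% to 56.7% elsewhere.

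The 28 further ribosomal protein rows, named through the reference tables and including RPL22L1, were lower in DDB1_KD by fitted value in 28 of 28, with a median log2 fold change of -0.20, next to the 50.0% of all genes. None had an unadjusted p under 0.05 (edgeR), where 2.89% of all genes had, and the smallest was 0.12, for RPL31. RPS19, RPL10A, RPL38 and RPLP1, well known for their roles in disease or selective translation, had log2 fold changes of -0.21 (SE 0.18), -0.21 (SE 0.17), -0.08 (SE 0.27) and -0.26 (SE 0.22). With these rows added, the share of counts was 12.1% ± 1.79 for DDB1_KD and 13.5% ± 1.40 for NC (SD, n = 5 each). They come from the same libraries as the members and are no independent check of them. Besides these, rows named RPS10-NUDT3, FLT3LG (ENSSSCG00000034448) and RPL17-C18orf32 are described in the table as RPS10, RPL13A and RPL17, at 751, 294 and 278 FPKM and log2 fold changes of -0.29, -0.27 and -0.08.

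Reads of members can be shared with copies. The table holds 22 rows described as ribosomal protein pseudogenes or -like genes, 17 of them with counts. Their summed counts, which are not part of the members' counts, were equal to 0.513% to 0.765% of the members' total per library. The row of the RPL9 pseudogene had a count equal to 9.49% of that of RPL9, the highest such ratio for a member. Furthermore, 15 members overlap a listed gene on the other strand, so that without strand information the reads of both may be mixed. RPS2 overlaps NDUFB10, which averaged 110 FPKM and 13570 counts, where RPS2 averaged 85552 counts. Another listed gene on the same strand overlaps 20 members, and strand information would not separate those reads. For 18 members a same-strand row of this kind is named by an RF identifier.

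Messages that share the TOP tract were measured beside the members. Of 30 listed TOP genes outside the members 25 were in the table and 24 were tested. Of these, 16 had a fitted value below 0 and 8 above, where 50.0% of all genes were below. Their median log2 fold change was -0.07. None had an unadjusted p under 0.05 (edgeR), where 2.89% of all genes had. NACA, which binds new chains at the ribosome exit, stood at 1449 ± 147 FPKM (DDB1_KD) and 1658 ± 103 FPKM (NC), a log2 fold change of -0.19 (SE 0.14). HNRNPA1, a splicing factor, had -0.34 (SE 0.24). EIF3H and EIF3E, subunits of an initiation factor, had 0.41 (SE 0.23) and 0.35 (SE 0.21).

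Of 23 tested regulators of ribosomal protein messages 10 had a fitted value below 0 and 13 above (median log2 fold change 0.09). None had an unadjusted p under 0.05 (edgeR), where 2.89% of all genes had. LARP1, which holds TOP messages, stood at 22.3 ± 11.4 FPKM (DDB1_KD) and 31.1 ± 5.09 FPKM (NC), with -0.49 (SE 0.29). EIF4E, the cap-binding factor, had 0.52 (SE 0.27), and the mTOR activators RRAGA and RHEB had 0.36 (SE 0.21) and 0.24 (SE 0.15). Of 27 tested carriers and surveillance factors of ribosomal proteins 14 lay below and 13 above 0 (median -0.03), again none with an unadjusted p under 0.05, next to the same 2.89%. Among them the import receptor TNPO1 had -0.35 (SE 0.20), HEATR3, which carries RPL5, had -0.47 (SE 0.27), the RPS26 chaperone TSR2 had 0.40 (SE 0.24) and the small subunit kinase RIOK2 had 0.53 (SE 0.34). The 13 tested maternal genes all had fitted values above 0 in DDB1_KD (median log2 fold change 0.90), where 50.0% of all genes were below 0. Of these maternal genes 1, ZP4, had an unadjusted p under 0.05 (edgeR), next to 2.89% of all genes, and none passed.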

How the data were processed

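RNA of 10 pig morula samples, 5 per group, was sequenced in pairs, and groups come from the sample titles, with the columns spelled DBB1 matched by group word and number. The deposited gene table holds FPKM and estimated counts for 24358 genes, and an isoform table the same for 47421 isoforms, per the file headers. The build in the submitters' processing notes is susScr11, and the tools there, without version or role, are edgeR, StringTie, HISAT2, fastp, HOMER and ChIPseeker. Whether strand was used in counting is not stated. The deposited counts are whole, and for all 24358 genes they add up from those of the isoforms. Isoform counts equalled deposited FPKM times length times a constant for 100% within 1.5 counts plus 0.5%, so they may be estimates from coverage rather than tallies of reads. Intervals and limits cover counting error only. FPKM is listed as 0.0001 where the count is 0. No 2 libraries correlated above 0.946 in log2 CPM.

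limma on log2(FPKM + 1) was to be used had there been no counts; because counts exist, edgeR 4.0.16 (glmQLFit and glmQLFTest, TMM, R 4.3.3) was fitted on the deposited estimated counts of all genes with a mean FPKM of at least 1, with group alone, and again scaled by the members' summed counts. Adjusted p-values are Benjamini-Hochberg over all genes tested. The SE is the coefficient divided by the root of F. The fits were tested on simulated data, with planted log2 fold changes larger than that of any member in the fit with all libraries. Recovery of effects of the members' size was thus not tested. limma 3.58.1, DESeq2 1.42.0, other scalings and filters, a replicate block and leaving out each library were alternatives. Python 3.11.15 did the rest. Members and gene lists were chosen with earlier results of these data known. Named members are the 6 highest and 6 lowest core members by FPKM, the 6 per direction with the smallest p, the 5 of widest stoichiometry SD among members with counts in every library, a role list and the paralog names; of other lists, up to 4 genes with the smallest p. RPS20, RPL9, RPL8, RPL6, RPL31 and NDUFB10 outside this rule were named after their values were seen. The values of 1 member entered every fit and count but are not reported here. No sequences were at hand for these genes, and none is shown.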

Additional observations from a re-analysis of the deposited data

Results flagged for a closer look

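Of 108 groups of 5 libraries checked, over the members and the library summaries, 4 held a library whose FPKM lay far from the other 4 of its group, relative to the range of the group; chance alone flags about 1 in 20 such groups. RPS27A stood at 2624 FPKM in NC replicate 1, the library with the highest ribosomal protein share, and at 1815 to 2026 FPKM in the other NC libraries. RPS3 stood at 475 FPKM in NC replicate 4 and at 591 to 601 FPKM in the others. RPS9 stood at 795 FPKM in DDB1_KD replicate 4 and at 410.2 to 514 FPKM in the others. RPL10L stood at 4.49 FPKM in NC replicate 3, and of the other NC libraries 3 had 0 counts.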

How the results depend on the processing

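DESeq2 called 2 genes where edgeR called 0, and no alternative called a member. The number of members with a lower fitted value was 43. Leaving aside scaling by the members' own summed counts, which centres them by construction (25 lower), it ran from 40 under scaling without mitochondrial genes, which moved the median of all genes to 0.05 and that of the members to -0.10, to 46 under limma; leaving out a library gave 34 to 46, with a median log2 fold change of -0.20 to -0.063. The share difference was -0.837 points and -1.16 to -0.478 points without a library, and the median SD of stoichiometry was 0.21 and 0.18 to 0.22. With all libraries, signs changed for named genes close to 0: limma gave -0.0036 for RPLP0, -0.0069 for RPL26L1 and -0.016 for RPS3 with either pseudocount, and RPS3 was -0.014 under total-count scaling, -0.0092 with no filter, -0.0050 with a mean FPKM of at least 5 and -0.0079 with the replicate block, while RPL27 was 0.016 under scaling without mitochondrial genes; the cause was not tested. Without a library RPLP0 ran from -0.013 to 0.20, RPL10L from -1.54 to 3.75, RPL5 from -0.040 to 0.089, RPL26L1 from -0.074 to 0.18, RPL27 from -0.13 to 0.089, RPL11 from -0.12 to 0.023 and RPS3 from -0.058 to 0.076. Other log2 fold changes kept their sign without a library but moved in size: RPL3 from -0.73 to -0.19, RPS2 from -0.64 to -0.085, RPL7L1 from 0.081 to 0.32, RPS9 from -0.44 to -0.17, RPL35 from -0.32 to -0.13, RPS14 from -0.41 to -0.20, RPS23 from -0.36 to -0.16, RPLP2 from -0.47 to -0.25, RPL23 from -0.35 to -0.20, RPL26 from -0.29 to -0.11, RPL10 from -0.25 to -0.048, RPS27A from -0.30 to -0.086, RPS6 from -0.19 to -0.024, RPSA from -0.16 to -0.019 and RPS4X from 0.00040 to 0.12. Same-numbered libraries of both groups deviated together in some pairs and not in others (correlations -0.14 to 0.35), and 2 of 10 libraries correlated best with their own number, so the numbers were not taken to pair the libraries; with the replicate block 0 genes were called and 44 members had lower fitted values. RPL10L and RPL3L had few or no counts in every library, while the other 49 members had at least 13737 counts in each. The counts of RPL10L did not follow depth: it had 138 in DDB1_KD replicate 1 (43272279 counts in all) and 0 in NC replicate 4 (50911295).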
